A study of Mus musculus with 16 samples.

Results

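A set of 9 genes of serine synthesis and folate one-carbon metabolism were followed in the RNA-seq of macrophages treated with a γ-secretase inhibitor (GSI). They were chosen by gene symbol, 9 of the 47069 genes in the count table, and they were picked with their response to GSI already known. Their values for GSI against DMSO are therefore given as a description, without a test. The genes were Phgdh, Psat1 and Psph of serine synthesis, Shmt1 and Mthfd1 of the cytosolic folate pathway, and Shmt2, Mthfd2, Mthfd1l and Aldh1l2 of the mitochondrial folate pathway.

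The study examined how blocking the activation of Notch signaling affects gene expression in macrophages activated through TLR and Fcγ receptors together. Bone marrow cells of C57BL/6 mice aged 8 to 10 weeks were grown with L929-conditioned medium and harvested on day 7 as bone marrow-derived macrophages (BMMs). All BMMs were primed overnight with IFNγ (10 ng/mL) and then activated for 1 hr with Salmonella LPS (100 ng/mL) and immune complexes of ovalbumin and IgG (LPS/ICs). The DMSO group received the vehicle (0.01%) and the GSI group received DAPT (25 µM), a small molecule that blocks γ-secretase, with 2 libraries per group and 4 sequencing runs per library. The study's methods place the addition of both agents on the night before activation, and legends of its other experiments give a shorter pretreatment. The length of the pretreatment is not stated for the RNA-seq itself. No unstimulated or unprimed group was among the RNA-seq samples, so the values describe GSI on top of IFNγ and LPS/ICs. DAPT acts on all substrates of γ-secretase and not on Notch receptors alone. The labels do not say whether the replicates came from separate mice or cultures, so the p-values below measure the spread between these libraries, which may be technical.

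The 4 libraries held 42694655 to 56932059 counts, and 3 counts in a library corresponded to 0.0529 to 0.0697 CPM, the count of a gene scaled to a common library size. The 4 runs of a library differed by about as much as counting noise (chi-square per degree of freedom 1.01 to 1.03) and were summed, whereas the replicates differed by more (14.7 for DMSO and 16.6 for GSI). The 7 macrophage genes checked were all present, with summed levels of 8401 to 10720 CPM. Marker lists of other cell types summed to at most 1.29 CPM for granulocytes, 0.145 CPM for lymphocytes, 0.370 CPM for dendritic cells and 0.162 CPM for fibroblasts, and the 4 mast cell and erythroid markers were at 0. The Notch target Hes1 had 5 and 2 counts with the vehicle and 1 and 5 with the inhibitor, too few to serve as a check of the treatment. In experiments apart from the RNA-seq, the study reported a loss of cleaved Notch1 and less hes1 by qPCR with GSI. As these are bulk samples, fewer cells of a type and less RNA per cell cannot be told apart.

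Serine is made from the glycolytic intermediate 3-phosphoglycerate by the dehydrogenase PHGDH, the aminotransferase PSAT1 and the phosphatase PSPH, acting in that order. Serine hydroxymethyltransferases then pass a carbon of serine to tetrahydrofolate, leaving glycine, and the folate-bound carbon is oxidised or reduced by further enzymes in parallel cytosolic and mitochondrial pathways. The formate and one-carbon units that result serve purine, thymidylate and methionine synthesis, and the pathway also yields NADPH. In many cell types the genes of this pathway are known targets of ATF4, the transcription factor of the amino acid and integrated stress response. In macrophages, serine and one-carbon metabolism is known for its link to LPS activation.

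The stretch around the transcription start was examined for 8 of the 9 genes, using the RefSeq windows of the mouse build GRCm38.p6 from 250 bases before to 50 bases after each start. Aldh1l2 was the member without an entry. The 4 windows below are those of the 2 genes with a motif match, Phgdh and Psph, and of Shmt2 and Mthfd2, which had about as large a GSI difference as Psat1 but no match. All 4 lie on the minus strand and are written in the direction of transcription, in lower case with motif matches in capitals. The windows are Phgdh at chr3:98339920-98340219, Psph at chr5:129787204-129787503, Shmt2 at chr10:127522395-127522694 and Mthfd2 at chr6:83317555-83317854.
Phgdh: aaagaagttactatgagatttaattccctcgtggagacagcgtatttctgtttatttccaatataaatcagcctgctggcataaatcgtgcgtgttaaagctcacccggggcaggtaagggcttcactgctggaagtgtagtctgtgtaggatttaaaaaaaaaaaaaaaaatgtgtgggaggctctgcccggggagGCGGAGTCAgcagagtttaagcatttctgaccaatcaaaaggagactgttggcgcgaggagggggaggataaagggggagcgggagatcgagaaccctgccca
Psph: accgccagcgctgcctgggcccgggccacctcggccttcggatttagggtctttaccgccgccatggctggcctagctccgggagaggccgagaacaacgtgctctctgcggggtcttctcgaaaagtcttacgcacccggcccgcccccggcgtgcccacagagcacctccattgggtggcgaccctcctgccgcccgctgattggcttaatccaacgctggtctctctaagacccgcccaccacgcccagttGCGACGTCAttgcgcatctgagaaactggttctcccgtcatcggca
Shmt2: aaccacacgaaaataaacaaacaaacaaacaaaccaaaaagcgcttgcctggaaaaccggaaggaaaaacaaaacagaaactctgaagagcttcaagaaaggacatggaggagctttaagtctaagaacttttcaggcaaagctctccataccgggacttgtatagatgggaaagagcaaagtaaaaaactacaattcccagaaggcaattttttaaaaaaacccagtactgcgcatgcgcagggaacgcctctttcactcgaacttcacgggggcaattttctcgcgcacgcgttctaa
Mthfd2: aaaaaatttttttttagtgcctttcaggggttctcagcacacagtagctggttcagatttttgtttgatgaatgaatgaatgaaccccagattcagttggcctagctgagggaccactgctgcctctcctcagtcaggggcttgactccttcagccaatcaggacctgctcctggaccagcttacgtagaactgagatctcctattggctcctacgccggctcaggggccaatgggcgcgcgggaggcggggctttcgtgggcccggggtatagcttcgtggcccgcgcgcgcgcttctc

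In all, 3 motifs were searched on both strands. The ATF4-C/EBP composite element was written as TGATGNAA, the E-box bound by MYC as CACGTG and the antioxidant element bound by NRF2 as TGACNNNGC. The first and second had no match in the windows of the 8 genes. They occurred in 3.97% and 7.15% of all 32851 RefSeq windows of this length, or in 4.51% and 8.09% of the 27025 genes these belong to. The antioxidant element matched in 2 of the 8 genes, against 14.0% of all genes and 12.4% of all windows. In Phgdh the match GCGGAGTCA began 53 bases before the start, and in Psph the match GCGACGTCA began at base 5 after it, both on the strand opposite to transcription. A match describes letters only, and a window without a match says nothing of sites elsewhere.

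Of the serine synthesis enzymes, Phgdh (ENSMUSG00000053398, chromosome 3, 98313170 to 98339990, minus strand, GRCm38) differed most. With DMSO its libraries held 7.34 and 7.40 CPM, and with GSI they held 32.3 and 32.4 CPM. Both GSI libraries were thus far above both DMSO libraries, and the replicates nearly coincided (7.37 ± 0.041 and 32.3 ± 0.0618, mean ± SD, n = 2). The log2 fold change was 2.13 (SE 0.0891), a 4.38-fold higher level with GSI. Among the 13211 genes tested it ranked 38th from the top by fold change, and 9th among the 7581 tested genes averaging at least 10 CPM.

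Psat1 (ENSMUSG00000024640, chromosome 19, 15904678 to 15947337, minus strand), the aminotransferase of the middle step, stood at 46.8 and 45.7 CPM with DMSO and at 90.3 and 84.6 CPM with GSI. The log2 fold change was 0.92 (SE 0.0727) or 1.89-fold. Psph (ENSMUSG00000029446, chromosome 5, 129765558 to 129787449, minus strand), the phosphatase of the last step, stood at 7.27 and 7.38 CPM with DMSO and at 11.9 CPM in both GSI libraries. Its log2 fold change was 0.70 (SE 0.101) or 1.62-fold. In both genes the groups did not overlap. Psph shares 452 exon bases with Cct6a on the opposite strand, which had 4995 and 6984 counts with DMSO and 6517 and 6639 with GSI against 313 to 590 for Psph. The libraries were prepared with a strand-specific kit, but the strand setting of the counting is not given in the sources used here, and the part of Cct6a reads in the Psph values was not tested.

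**Figure D1:**
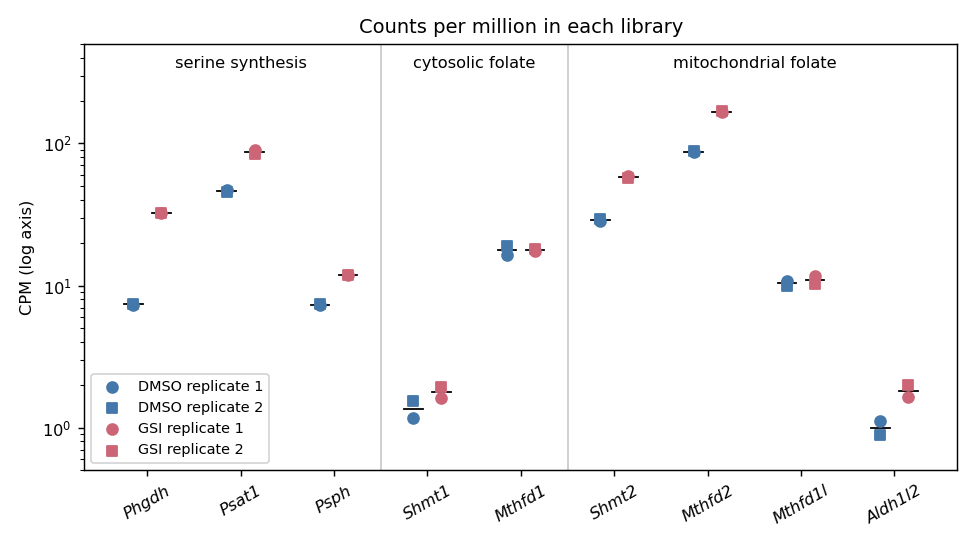
CPM (log axis) of the 9 enzymes in each of the 4 libraries, grouped by pathway, with a black line at each group mean of 2 libraries. The GSI libraries lie above both DMSO libraries in 7 genes, against 35.8% of all tested genes, the members having been chosen by this contrast. The margin is widest in Phgdh (7.34 and 7.40 against 32.3 and 32.4 CPM). It is narrow in Shmt1 (1.53 CPM in DMSO replicate 2 against 1.61 CPM in GSI replicate 1), and the groups overlap in Mthfd1 and Mthfd1l.

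The cytosolic folate enzymes differed less. Shmt1 (ENSMUSG00000020534, chromosome 11, 60788104 to 60811718, minus strand), the cytosolic serine hydroxymethyltransferase, stood at 1.16 and 1.53 CPM with DMSO and at 1.61 and 1.94 CPM with GSI. The log2 fold change was 0.38 (SE 0.209) and the higher DMSO library lay close to the lower GSI library. It was 0.21 without DMSO replicate 1, 0.24 without GSI replicate 2 and 0.61 without DMSO replicate 2. These values rest on 50 to 96 counts, and Shmt1 shares 184 exon bases with the opposite-strand gene Smcr8, which had 5855 to 7767 counts. Mthfd1 (ENSMUSG00000021048, chromosome 12, 76255298 to 76319803, plus strand), which encodes the trifunctional cytosolic enzyme that interconverts the folate-bound one-carbon units, stood at 16.5 and 18.8 CPM with DMSO and at 17.5 and 17.9 CPM with GSI. Both GSI libraries lay between the DMSO libraries. The log2 difference was within its error of 0 (SE 0.0903).

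Of the mitochondrial enzymes, Shmt2 and Mthfd2 were higher by about as much as Psat1. Shmt2 (ENSMUSG00000025403, chromosome 10, 127517123 to 127522444, minus strand), the mitochondrial serine hydroxymethyltransferase, stood at 28.5 and 29.2 CPM with DMSO and at 58.9 and 56.8 CPM with GSI. The log2 fold change was 1.00 (SE 0.0743), a 2.01-fold difference. Mthfd2 (ENSMUSG00000005667, chromosome 6, 83305691 to 83325908, minus strand), the dehydrogenase and cyclohydrolase that follows SHMT2, stood at 87.3 and 87.9 CPM with DMSO and at 165 and 169 CPM with GSI. The log2 fold change was 0.93 (SE 0.0691) or 1.91-fold. In neither gene did the groups overlap.

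Mthfd1l (ENSMUSG00000040675, chromosome 10, 3973118 to 4167081, plus strand), the mitochondrial formyltetrahydrofolate synthetase that releases formate, stood apart from these. Its libraries were at 10.7 and 9.94 CPM with DMSO and at 11.7 and 10.2 CPM with GSI, overlapping, with a log2 fold change of 0.09 (SE 0.104). Aldh1l2 (ENSMUSG00000020256, chromosome 10, 83487450 to 83534140, minus strand), which oxidises the formyl group to CO2 while producing NADPH, stood at 1.12 and 0.881 CPM with DMSO and at 1.63 and 2.0 CPM with GSI. Its log2 fold change was 0.88 (SE 0.221), resting on 48 and 50 counts with DMSO and 79 and 99 with GSI. Aldh1l2 shares 1056 exon bases with the opposite-strand gene D10Wsu102e, which had 1682 and 2238 counts with DMSO and 1580 and 1609 with GSI. The part of that gene's reads in these values was not tested.

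**Figure D2:**
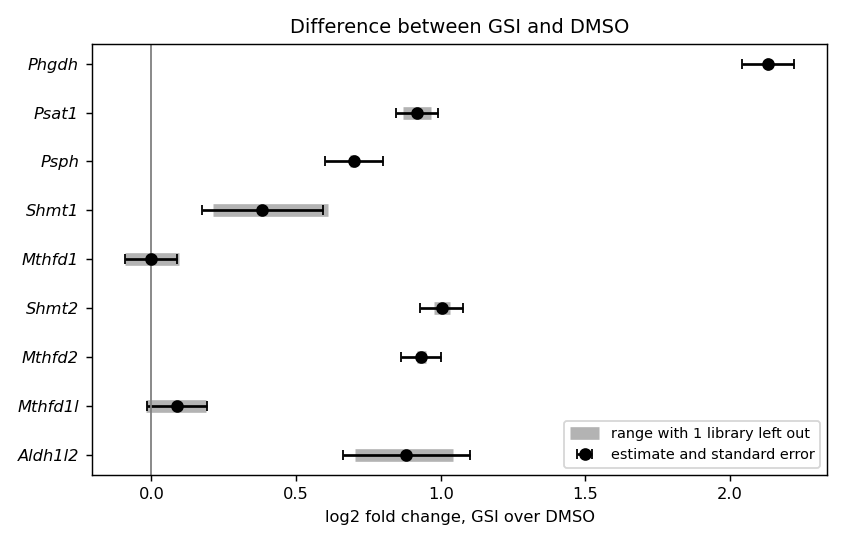
Log2 fold change of GSI over DMSO for the 9 enzymes (points) with its standard error (bars) and the range obtained when each of the 4 libraries is left out in turn (grey). Phgdh stands alone at 2.13, Psat1, Shmt2, Mthfd2 and Aldh1l2 lie between 0.88 and 1.00, Shmt1 ranges from 0.21 to 0.61, and the ranges of Mthfd1 (-0.09 to 0.10) and Mthfd1l (-0.02 to 0.19) include 0.

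All 9 genes passed the filter on low counts. Both GSI libraries were above both DMSO libraries in 7 members, against 35.8% of all tested genes. Since the members were chosen by this contrast, nothing is read from this count. The median log2 fold change of the members was 0.88, beside 0.01 over all tested genes. This median is the value of Aldh1l2 (SE 0.221), and it too describes genes chosen by this contrast.

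Added together, the 9 genes took 207 and 209 CPM with DMSO, against 391 and 387 CPM with GSI. The serine synthesis genes summed to 61.4 and 60.5 CPM with DMSO and to 134 and 129 CPM with GSI, a ratio of group means of 2.16. For the mitochondrial genes the sums were 128 CPM in both DMSO libraries and 238 CPM in both GSI libraries, a ratio of 1.86. The cytosolic genes summed to 17.7 and 20.4 CPM with DMSO and to 19.1 and 19.9 CPM with GSI, a ratio of 1.02 with overlapping groups.

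To compare levels between genes, CPM was divided by the exon length in kilobases (RPKM). With DMSO the order from the top was Mthfd2 (25.1 ± 0.107 RPKM, mean ± SD, n = 2), Psat1 (10.9 ± 0.174), Shmt2 (9.28 ± 0.169), Mthfd1 (3.98 ± 0.369), Phgdh (2.97 ± 0.0165), Mthfd1l (2.33 ± 0.127), Psph (1.69 ± 0.018), Shmt1 (0.347 ± 0.0676) and Aldh1l2 (0.133 ± 0.0221). Each gene stood apart from its neighbours by more than these spreads. An SD of 2 libraries can be smaller than the counting error, which was not computed. With GSI the order was Mthfd2 (48.0 ± 0.77 RPKM), Psat1 (20.6 ± 0.956), Shmt2 (18.6 ± 0.477), Phgdh (13.0 ± 0.0249), Mthfd1 (3.99 ± 0.0734), Psph (2.75 ± 0.012), Mthfd1l (2.47 ± 0.249), Shmt1 (0.458 ± 0.0602) and Aldh1l2 (0.242 ± 0.0349). Phgdh thus moved above Mthfd1. With GSI, Psph and Mthfd1l were separated by about the spread of Mthfd1l and their order is not settled, and the other neighbours stood apart by more than their spreads. When the length of the principal transcript was used instead, an alternative chosen after seeing the data, the first 3 and last 2 genes kept their places in both groups while the order among the other 4 differed. Phgdh was then 6th with DMSO and 4th with GSI.

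**Figure D3:**
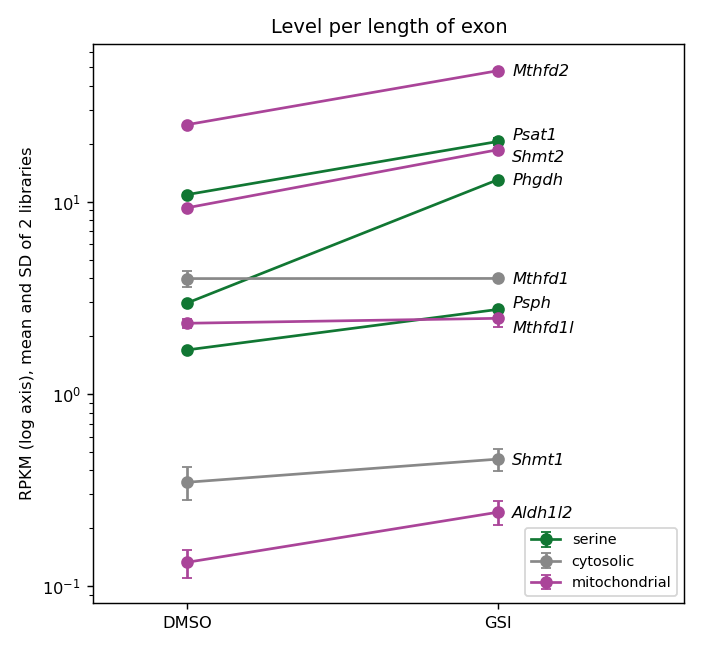
Mean level per kilobase of exon (RPKM, log axis) of the 9 enzymes in the DMSO and GSI groups, with the SD of 2 libraries as bars and the colour marking the pathway. Mthfd2 is at the top in both groups (25.1 and 48.0 RPKM), Phgdh passes Mthfd1 (from 2.97 to 13.0 against 3.98 and 3.99 RPKM), and Shmt1 and Aldh1l2 stay below 0.5 RPKM.

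Ratios between the serine synthesis genes were also taken. Per length, Psat1 exceeded Phgdh by 3.72 and 3.61 times with the vehicle, but by 1.63 and 1.53 times once GSI was present. For Phgdh over Psph the ratios were 1.76 and 1.75 without GSI, against 4.74 and 4.72 with it. The ratio of Psat1 to Psph was nearer in the groups, at 6.54 and 6.30 with DMSO and 7.74 and 7.20 with GSI. The size of the ratios to Psph depended on the length used. With the principal transcripts, Phgdh over Psph was 0.924 and 0.918 without GSI, so that Psph lay above Phgdh, and 2.49 and 2.48 with GSI, and Psat1 over Psph was 4.26 and 4.10 against 5.04 and 4.69. With either length, Phgdh was higher with GSI by a larger factor than the other genes of serine synthesis.

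Between compartments, Mthfd2 exceeded Mthfd1 by 6.73 and 5.94 times per length with DMSO and by 12.1 and 12.0 times with GSI. Mthfd2 over Mthfd1l, which act within the same mitochondrial pathway, came to 10.3 and 11.2 without GSI, against 17.9 and 21.1 with it. The ratio of Mthfd1l to Mthfd1 overlapped between the groups, at 0.651 and 0.528 against 0.673 and 0.569. Shmt2 made up 96.8% and 96.0% of the sum of both hydroxymethyltransferases per length with DMSO and 97.9% and 97.3% with GSI, so the mitochondrial form prevailed in all 4 libraries.

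The genes around this pathway were taken as 6 lists, chosen with results of these data known. They covered other folate enzymes, folate transport, serine and glycine transport, serine and glycine use, the methionine cycle and lower glycolysis. Of 65 genes listed, 49 were tested, and 12 rose (24.5%, against 19% of all tested genes) and 5 fell (10.2%, against 21.9%) at an FDR under 0.05 by edgeR. Without DMSO replicate 2 the number that fell was 3. The median log2 fold changes of the lists were between 0.01 and 0.24, so the larger differences were of single genes.

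In serine and glycine transport, 2 of 8 tested genes rose (25%, against 19% of all tested genes) and 2 fell (25%, against 21.9%). Slc6a9, which encodes a glycine transporter of the plasma membrane, rose from 1.84 and 1.62 CPM to 7.38 and 6.40 CPM (log2 fold change 2.0, SE 0.149, FDR 1.87e-09). Slc1a4, a neutral amino acid transporter that carries serine, rose from 4.51 and 4.11 to 10.8 and 11.8 CPM (1.39, SE 0.114, FDR 6.53e-09). Sfxn3, of the family of mitochondrial serine carriers, fell by 0.60 on the log2 scale (38.2 to 25.3 CPM, SE 0.0774, FDR 3.24e-06), whereas its relative Sfxn1 differed by 0.13 (FDR 0.228). Slc38a1, a transporter of small neutral amino acids, fell by 0.29 (FDR 0.00248), a call lost without DMSO replicate 2 (-0.24).

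Of the enzymes of serine and glycine use, 3 of 9 tested rose (33.3%, against 19% of all tested genes) and 0 fell by edgeR's test. At an unadjusted p under 0.05, 4 were higher and 1 was lower, and DESeq2 called 2 higher and 0 lower. The 3 that rose by edgeR were Cth, Gcat and Ptdss2. Cth makes cysteine from cystathionine (1.06 to 2.78 CPM, log2 fold change 1.37, SE 0.203, FDR 1.68e-05). Gcat is a mitochondrial enzyme of threonine and glycine metabolism (0.66, FDR 0.00564), and Ptdss2 makes phosphatidylserine (0.39, FDR 0.00471). The Gcat call was lost with DESeq2 and the Ptdss2 call without DMSO replicate 1 (0.29). Cbs, which joins serine to homocysteine and makes the substrate of Cth, had at most 0.0207 CPM and was not tested.

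Among other folate enzymes, 3 of 14 tested rose (21.4%, against 19% of all tested genes) and 1 fell (7.14%, against 21.9%). Mthfsl, a relative of methenyltetrahydrofolate synthetase, rose from 27.3 and 26.6 to 41.9 and 38.2 CPM (log2 fold change 0.57, FDR 7.12e-06). Ggh, which trims folate polyglutamates, rose by 0.22 (FDR 0.03), lost with DESeq2 and without DMSO replicate 2 (0.11) or GSI replicate 2 (0.17). Tyms, thymidylate synthase, fell from 4.60 to 2.73 CPM (-0.75, FDR 0.00034). Relatives of 2 members, Mthfd2l and Aldh1l1, were not called. Mthfd2l, the mitochondrial relative of Mthfd2, had 34 to 43 counts per library (-0.11, SE 0.279, FDR 0.784), with a sign that turned when DMSO replicate 1 (0.16) was left out, and Aldh1l1, the cytosolic relative of Aldh1l2, was at 31.6 and 34.2 CPM (0.11, FDR 0.282). Of the 5 tested folate transport genes, 0 were called by edgeR or DESeq2 and 0 had an unadjusted p under 0.05, Slc25a32, the mitochondrial folate carrier, being nearest to 0 (0.01, FDR 0.949).

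By edgeR, 2 of 7 tested genes of the methionine cycle fell (28.6%, against 21.9% of all tested genes) and 0 rose. DESeq2 gave the same counts for the list, and 0 were higher at an unadjusted p under 0.05. Mtr, methionine synthase, fell from 20.4 to 12.5 CPM (-0.71, FDR 1.72e-06) and Ahcyl2, a relative of adenosylhomocysteine hydrolase, fell by 0.29 (FDR 0.00364), a call lost without DMSO replicate 2 (-0.24). In lower glycolysis, 4 of 6 tested genes rose by small amounts (66.7%, against 19% of all tested genes). They were Gapdh (0.22, FDR 0.0196) and Pgk1 (0.26, FDR 0.0229), whose enzymes lead to 3-phosphoglycerate, and, of the steps after it, Pgam1 (0.30, FDR 0.00988) and Eno1 (0.27, FDR 0.00779). These calls were sensitive to single libraries, with 1 of the 4 left without GSI replicate 2 (Pgk1 0.09, Pgam1 0.12, Eno1 0.18) and 2 left without DMSO replicate 1 (Gapdh 0.19, Pgk1 0.19). Gapdh was also lost without DMSO replicate 2 (0.24).

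**Figure D4:**
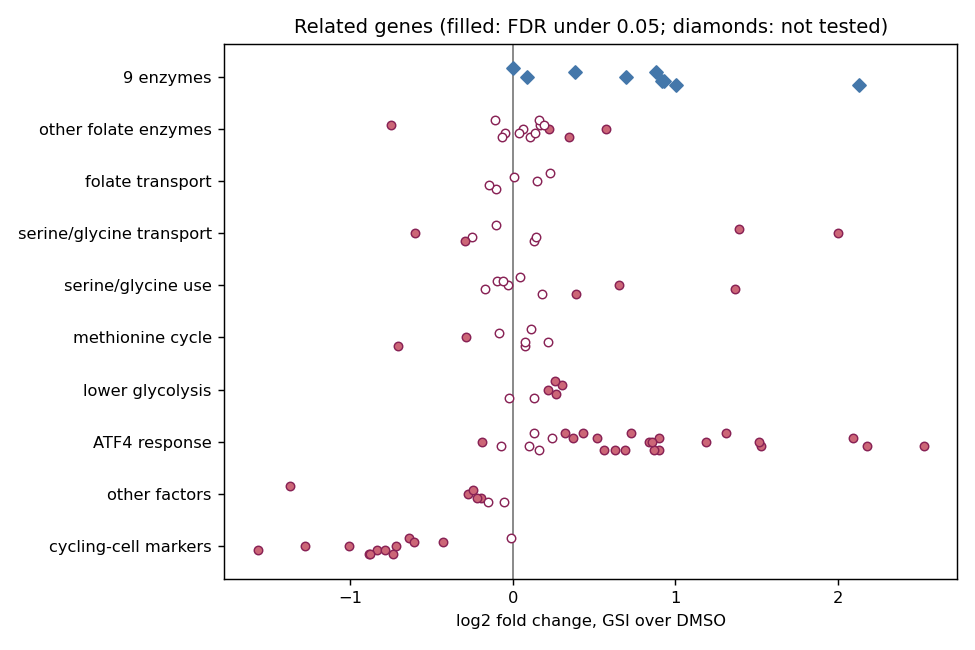
Log2 fold change of GSI over DMSO for the 9 enzymes (diamonds, given without a test) and for the tested genes of 9 related lists (circles, filled where the edgeR FDR was under 0.05). The ATF4 response list lies mostly to the right (20 of 26 filled and higher, against 19% of all tested genes). The cycling-cell list lies to the left (12 of 13 filled and lower, against 21.9%), and the folate transport list around 0.

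Genes known to respond to ATF4, chosen with results of these data known and so no independent evidence of direction, were higher in 20 of 26 tested (76.9%, against 19% of all genes) and lower in 1. A log2 fold change above 1.5 was reached by 5 of them, against 0.742% of all genes. Atf4 itself, which is counted in this list and among the genes that were higher, was at 239 and 253 CPM with DMSO. With GSI it was at 476 and 444 CPM (0.90, SE 0.0726, FDR 5.54e-09). Gdf15, a stress-induced cytokine, rose most in the list (2.53, SE 0.0878, FDR 3.15e-14), with Chac1, a glutathione-degrading enzyme (2.18), and Trib3, a pseudokinase (2.09). Asns, asparagine synthetase, rose from 56.0 to 161 CPM (1.53, FDR 6.46e-12), Slc7a5, a transporter of large neutral amino acids, from 11.3 to 32.4 CPM (1.52, FDR 7.52e-11) and Atf5, a related transcription factor, from 21.2 to 53.0 CPM (1.31, FDR 1.27e-09). The gene that fell was Atf3 (-0.19, FDR 0.0398), a call lost with each of the 4 libraries left out. The list's median was 0.71, beside 0.88 for the 9 enzymes and 0.01 for all tested genes.

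Of 7 other tested factors known to act on these genes, 5 were lower, against 21.9% of all genes, and 4 of these calls were lost when 1 library was left out. Myc, a driver of cell growth, fell from 47.3 ± 3.86 to 18.3 ± 0.129 CPM (mean ± SD, n = 2) by edgeR (-1.37, SE 0.0824, FDR 1.09e-10). Nfe2l2, which encodes NRF2, was at 603 and 543 CPM on average (-0.15, FDR 0.161), with a call as lower when DMSO replicate 2 (-0.27) or GSI replicate 1 (-0.21) was left out, and at -0.02 without DMSO replicate 1 and -0.09 without GSI replicate 2. The remaining 4 fell by little. Trp53 (-0.22) lost its call without DMSO replicate 2 (-0.14) or either GSI replicate (-0.22 each), and Hif1a (-0.19) without DMSO replicate 1 (-0.12) or GSI replicate 2 (-0.15). Mtor (-0.25) lost it without DMSO replicate 1 or GSI replicate 1 (-0.22 each), and Kdm4c (-0.27) without DMSO replicate 1 (-0.20) or GSI replicate 2 (-0.22). With 1 library left out, 2 of the 5 were called without DMSO replicate 1 and 2 without GSI replicate 2.

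Markers of other cell states moved as well. Of 13 genes of cycling cells, 12 fell (92.3%, against 21.9% of all genes), among them Rrm2 (-1.57), Top2a (-1.28), Mcm7 (-1.0), Ccnb1 (-0.88), Rrm1 (-0.88), Cdk1 (-0.83) and Mki67 (230 to 151 CPM, -0.61, FDR 1.22e-06). Of the 7 macrophage genes, 5 fell (71.4%, against 21.9% of all genes) and 1, Mertk (0.64), rose (14.3%, against 19%), with summed levels of 10427 and 10720 CPM with DMSO and 8401 and 9184 CPM with GSI. Itgam (-0.63), Csf1r (-0.56) and Fcgr1 (-0.44) fell by more than Adgre1 (-0.28) and Lyz2 (-0.23). The calls of Adgre1 and Lyz2 were lost without DMSO replicate 2 (-0.25 and -0.24) and without GSI replicate 1 (-0.16 and -0.17), and that of Lyz2 also without DMSO replicate 1 (-0.23). The part of these differences in the values of the 9 enzymes was not tested.

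To find genes with a similar pattern, the log2 CPM of each gene was centred on its mean over the 4 libraries and set against the median profile of the 9 members. Among 7575 other genes averaging at least 10 CPM, the nearest by Euclidean distance were Pde4dip (0.0574), Nr1h3 (0.0638), Lpar1 (0.0768), Enpp4 (0.080) and Esd (0.0837), and 11 lay within 0.1. Nr1h3, which encodes the nuclear receptor LXRα, was at 31.8 and 30.1 CPM with DMSO and 54.4 and 55.2 CPM with GSI, and the 5 genes had log2 fold changes of 0.81 to 0.86. With 4 libraries in 2 groups this measure mostly reflects the size of the GSI difference.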

How the data were processed

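RNA-seq was measured in 16 runs, 4 for each of 2 DMSO and 2 GSI libraries. The authors prepared strand-specific libraries from total RNA, aligned reads with STAR (version 2.5.0a in the submitters' processing notes, which name the builds mm9 and mm10) and assigned them to genes with HTSeq. The deposited table holds unnormalized counts of each gene in each run. The counting mode and strand setting are not given in the sources used here.

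From these counts, runs were summed per library. Groups were compared with the quasi-likelihood method of edgeR 4.0.16 in R 4.3.3, with group as factor, filterByExpr and TMM factors. P-values were adjusted by Benjamini-Hochberg over 13211 genes, and the threshold was an FDR under 0.05. The SE is the size of the log2 fold change divided by the square root of F. CPM used TMM-adjusted library sizes, and RPKM used the union of exons in GENCODE M21 (GRCm38). The code was tested on simulated data. Motifs were read from RefSeq windows. Depth was 42694655 to 56932059 counts per library; intervals of counting error were not computed.

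The members and lists were chosen with earlier results of these data known. All 9 members were named. From each related list the genes named were those with an FDR under 0.05, or, where more than 6 passed, the 6 with the largest absolute log2 fold change averaging at least 1 CPM, with Mthfd2l, Aldh1l1, Atf4, Myc, Nfe2l2, Hes1 and Mki67 always named. Of the genes this rule names, 1 is counted but not reported here. Sfxn1, Cbs, Slc25a32 and Atf3 were named after their values were seen. Alternatives were RLE or no normalization factors, other filters, DESeq2 1.42.0, a replicate block, runs as separate samples and leaving out each library.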

Additional observations from a re-analysis of the deposited data

How the results depend on the processing

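The 9 enzymes kept their direction under all alternatives except Mthfd1 and Mthfd1l, which lay near 0 throughout. Leaving out 1 library each, their median log2 fold change was between 0.71 and 0.93, with 0.71 without DMSO replicate 2 and 0.73 without GSI replicate 2. Leaving out libraries gave 9 to 12 genes of the 6 pathway lists that rose and 3 to 6 that fell, against 12 and 5. The library left alone in its group is then assumed to vary like the other group. With the 16 runs as separate samples, which are not replicates, 23 rose and 9 fell. With a replicate block, 14 rose and 7 fell, and 48.8% of all tested genes were called, against 40.8%. The replicates share only a number, as the labels do not say what it marks and there are 2 pairs, and the replicate differences of the groups correlated at 0.15 over 13211 genes. Mthfd2l turned to 0.16 without DMSO replicate 1 and to 0.0034 without GSI replicate 1, within a range of -0.38 to 0.16. Of 45 related genes named by the rule, 15 lost a call under at least 1 alternative, and 462 of 495 values kept their direction and their side of the threshold. Atf3, named outside the rule, lost its call with each library left out. At 48 to 99 counts, Shmt1 and Aldh1l2 were the least precise members.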
